A study of Mus musculus with 21 samples.

Results

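Adenosine, histamine and orexin are chemical signals that set the balance between sleep and wakefulness, and 10 genes that make, sense or remove them were followed here in the ventral hypothalamus (VH) of mice on different diets. The genes were *Adora1*, *Adora2a*, *Adk*, *Ada*, *Hdc*, *Hrh1*, *Hrh3*, *Hnmt*, *Hcrtr1* and *Hcrtr2*. They were chosen by symbol, each matched a single row of the deposited count table, and they are 10 of the 21654 genes in it.

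The VH was taken from male C57BL/6J mice that had arrived at 12 to 14 weeks of age and had then eaten regular chow (RC) or a high-fat diet (HFD, 45% of calories from fat) for 8 to 10 weeks. A diet switch (DS) followed for some of the mice, and tissue was collected on day 7 after it, at ZT6, the middle of the light phase, after 3 h in which the mice were kept awake with unfamiliar objects. Every library therefore came from mice that had been kept awake, and no library from undisturbed mice was analysed here. Polyadenylated RNA was sequenced, and each library pooled RNA from the punches of 2 mice in equal parts.

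RC NoDS mice stayed on RC (5 libraries), and HFD NoDS mice stayed on HFD (5 libraries). RC → HFD mice were moved from RC to HFD (6 libraries), and HFD → RC mice were moved from HFD to RC (5 libraries). In the whole cohort of the study, RC → HFD mice gained weight after the switch and HFD → RC mice lost it. At collection these groups were of similar body weight, heavier than RC NoDS and lighter than HFD NoDS. The punches, 3 per brain, were aimed at the arcuate, ventromedial and paraventricular nuclei and were meant to leave out the lateral hypothalamus, and brains with too much *Hcrt* relative to *Agrp* and *Pomc* had been dropped before pooling. The library totals lay between 16380781 and 16390598 reads, nearly equal because the authors had re-sampled the reads to a common depth.

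Adenosine accumulates with neural activity during wakefulness and promotes sleep, acting on *Adora1*, a receptor that inhibits neurons throughout the brain, and on *Adora2a*, a receptor that stimulates cyclic AMP production and is densest in the striatum. Histamine comes from neurons of the tuberomammillary nucleus in the posterior hypothalamus and promotes wakefulness, and the orexin peptides, made from *Hcrt* by neurons of the lateral hypothalamus, excite those neurons and other arousal nuclei. The amount of each signal depends on the enzymes that make and remove it, so the genes are given below by these roles.

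RNA of the targeted nuclei was present in all 21 libraries, although the paraventricular gene *Crh* had a count of 0 in 7 of them. The summed level of 7 arcuate genes lay between 714.8 and 1412 CPM (counts scaled to library size), that of 3 ventromedial genes between 126.1 and 378.4 CPM, and that of 4 paraventricular genes, mostly *Avp* and *Oxt*, between 206.2 and 1811 CPM. Tissue from the neighbouring sources of histamine and orexin was in the punches too. The summed level of 4 genes of tuberomammillary neurons (*Slc18a2*, *Maob*, *Prph* and *Wif1*) lay between 46.2 and 147.5 CPM, and that of *Hcrt* and *Pmch*, peptide genes of the lateral hypothalamus, between 22.96 and 146.8 CPM.

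The libraries also differed in how completely they sampled weakly expressed genes. Of the genes with a mean between 5 and 50 reads, RC NoDS libraries lacked 3.22 ± 2.42% (SD, n = 5), HFD NoDS libraries 16.3 ± 9.93% (n = 5), RC → HFD libraries 11.9 ± 8.82% (n = 6) and HFD → RC libraries 16.5 ± 10.3% (n = 5). RC NoDS thus had the fewest zeros, and HFD NoDS replicate 20, at 32.9%, and HFD → RC replicate 17, at 31.9%, had the most. These libraries were also the least like the rest of their groups, with median correlations to them of 0.952 and 0.962 against 0.970 or more in the other 19 libraries. This zero share is given below where it moved with a result.

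Levels can be compared between genes on a scale of reads per kilobase of exon. By the mean over 21 libraries the order was *Hrh3* (784 ± 68.0 reads per kilobase, SD, n = 21), *Adk* (385 ± 46.9), *Adora1* (249 ± 39.4), *Hdc* (130 ± 56.0), *Hcrtr1* (91.9 ± 26.7), *Hnmt* (83.2 ± 33.2), *Hcrtr2* (51.4 ± 12.9), *Hrh1* (32.2 ± 7.44), *Adora2a* (9.55 ± 4.62) and *Ada* (8.75 ± 7.71). *Hrh3* was above *Adk*, and *Hrh1* above *Adora2a*, in all 21 libraries with no overlap of their ranges. *Hcrtr1* and *Hnmt* could not be ordered, since *Hcrtr1* was the higher gene in 11 of 21 libraries, and neither could *Adora2a* and *Ada*, where *Adora2a* was the higher in 13. The remaining neighbours overlapped in range but kept their order in 16 to 20 of the 21 libraries.

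**Figure D1:**
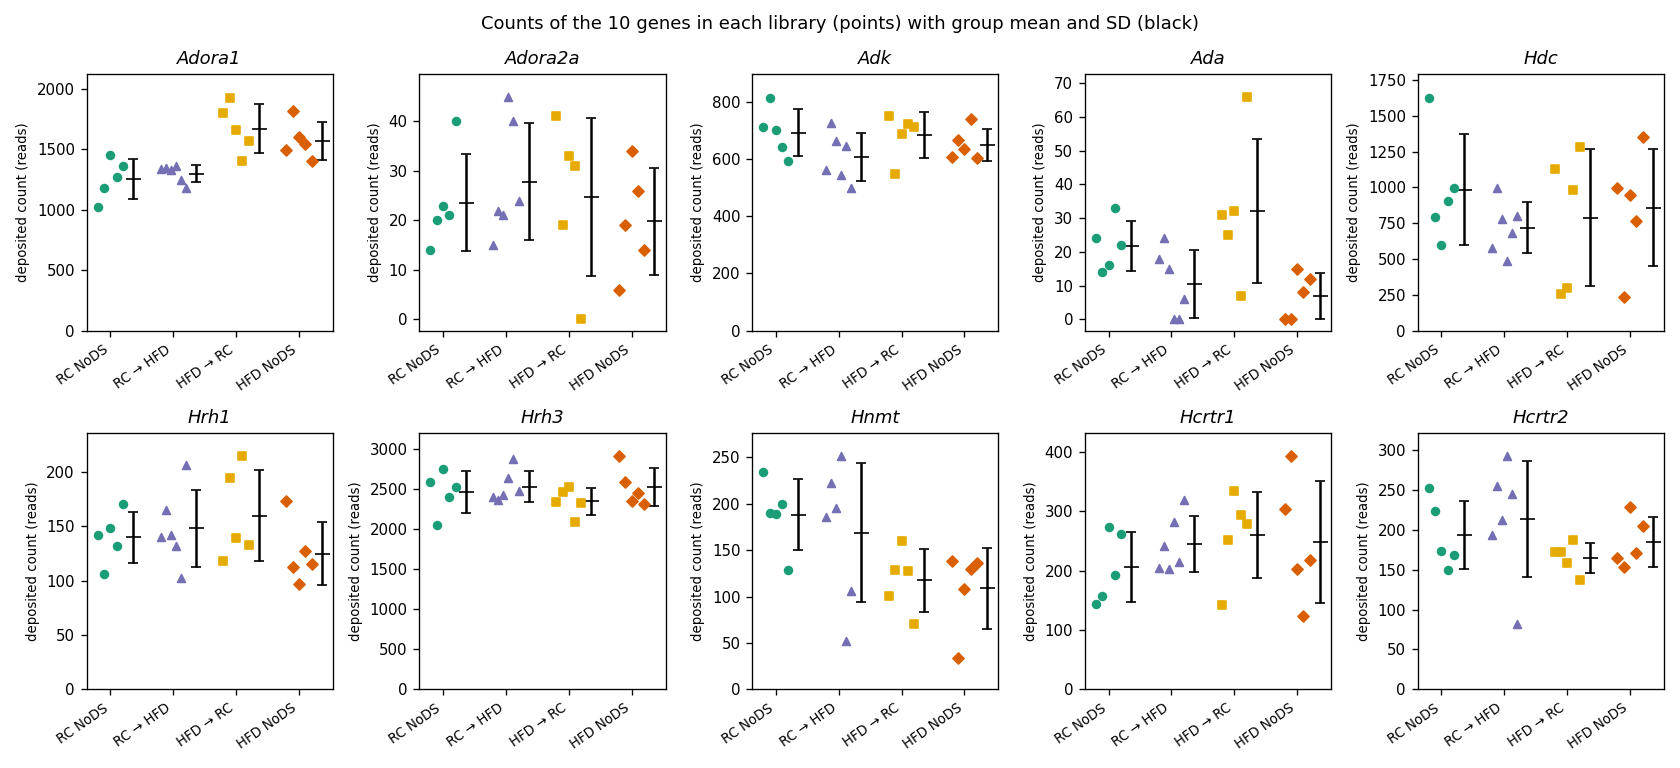
Deposited counts (reads, linear axis from 0) of the 10 genes in each of the 21 libraries, 1 panel per gene, with libraries as coloured points by diet group and the group mean ± SD in black. *Adora1* sat at 1401 or more in every HFD → RC and HFD NoDS library and at 1359 or less in every RC → HFD library, while the groups overlapped for the other 9 genes.

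*Adora1*, the most abundant adenosine receptor gene among the members, was higher in mice whose earlier diet had been HFD, whichever diet they were eating when tissue was taken. Its counts were 1018, 1176, 1450, 1266 and 1361 in RC NoDS replicates 1, 2, 3, 5 and 6, and in RC → HFD they ran from 1176 through a median of 1332 to 1359. Counts were 1799, 1925, 1655, 1401 and 1570 in HFD → RC replicates 13 to 17, and 1491, 1814, 1598, 1540 and 1401 in HFD NoDS replicates 19, 20, 21, 23 and 24. All 6 RC → HFD libraries lay below all 10 libraries of the groups that had started on HFD, and so did 4 of the 5 RC NoDS libraries, RC NoDS replicate 3 being the exception. The group means were 1254 ± 167 (SD, n = 5) for RC NoDS, 1297 ± 72.0 (n = 6) for RC → HFD, 1569 ± 155 (n = 5) for HFD NoDS and 1670 ± 203 (n = 5) for HFD → RC. RC NoDS overlapped RC → HFD, and HFD NoDS overlapped HFD → RC. In bulk tissue, fewer cells of a type and less RNA per cell cannot be told apart, here and below.

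The test across all genes (the edgeR quasi-likelihood test, called at an adjusted p under 0.15) was passed by *Adora1* in 3 comparisons and by no other member in any. Over all 4 groups, *Adora1* was the 1 member of 10 called, with an adjusted p of 0.125, where 0.149% of the 12768 tested genes were called. In RC NoDS v HFD → RC, it was again the 1 member of 10 called, higher in HFD → RC by 0.44 on the log2 scale (95% interval 0.25 to 0.63, adjusted p 0.115), beside 0.282% of tested genes. With the groups averaged by their earlier diet, a comparison added after the data had been seen, *Adora1* was higher after HFD by 0.35 (95% interval 0.22 to 0.49, adjusted p 0.0628), and it was the 1 member of 10 called, beside 0.0705% of tested genes. The 11 libraries of earlier RC had counts of 1018 to 1450 (median 1330) and the 10 of earlier HFD 1401 to 1925 (median 1584).

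In the remaining pairs *Adora1* differed in the same sense without a call. The edgeR difference was 0.34 in RC NoDS v HFD NoDS (higher in HFD NoDS, p 0.00161, adjusted p 0.607), and 0.36 in RC → HFD v HFD → RC (higher in HFD → RC, p 0.000527, adjusted p 0.633). It was -0.27 in HFD NoDS v RC → HFD (lower in RC → HFD, p 0.00757, adjusted p 0.510). The libraries of RC → HFD and HFD → RC did not overlap for *Adora1*, 1 member of 10, where 0.486% of the tested genes had no overlap, and those of RC → HFD and HFD NoDS did not either, 1 member of 10 beside 0.744%. Where only the current diet differed, the values were 0.07 in RC NoDS v RC → HFD and 0.10 in HFD NoDS v HFD → RC, both smaller than the spread between replicates. With each library left out in turn they ran from 0.003 to 0.13 and from 0.04 to 0.16. The difference between these diet effects, tested as an interaction, was -0.17 (p 0.222, adjusted p 0.782), and from -0.23 to -0.10 in those fits.

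The calls were close to the threshold. In RC NoDS v HFD → RC the call was lost without RC NoDS replicate 1 (adjusted p 0.442), 2 (0.265) or 5 (0.253) and without HFD → RC replicate 13 (0.289), 14 (0.245) or 15 (0.209). The earlier-diet call was lost without RC NoDS replicate 1 (0.162) or 2 (0.197), RC → HFD replicate 11 (0.152) or HFD → RC replicate 14 (0.225). The call over all 4 groups held in 6 of the 21 fits that left out 1 library. Its adjusted p was 0.156 to 0.311 in the other 15, without any RC → HFD library, RC NoDS replicates 1, 2 and 5, HFD → RC replicates 13, 14, 15 and 17, and HFD NoDS replicates 21 and 23. Without HFD → RC replicate 16, *Adora1* was also called in RC → HFD v HFD → RC (0.42, adjusted p 0.0719). With the share of zero counts as a covariate the differences kept their size, 0.40 in RC NoDS v HFD → RC and 0.33 by earlier diet, but the adjusted p rose to 0.406 and 0.601, and over all 4 groups it was 0.440. The call in RC NoDS v HFD → RC was also lost with limma-voom (adjusted p 0.152), with library size in place of TMM (0.153) and with only these groups in the fit (0.169), and that over all 4 groups with limma-voom (0.187). Without HFD NoDS replicate 20 and without HFD → RC replicate 17, each left out in turn, the earlier-diet difference was 0.32 (adjusted p 0.113) and 0.37 (adjusted p 0.0726).

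RNA of oligodendrocytes, the cells that make myelin, moved with *Adora1*. The marker genes were *Mbp*, *Mog* and *Mag*, all 3 were tested, none was at 0 in any library, and *Mbp* was the most abundant. Of the 3, *Mbp* was called in RC NoDS v HFD → RC (1.04, adjusted p 0.115) and by earlier diet (0.75, adjusted p 0.142). The median difference by earlier diet was 0.643 over the 3 genes and 0.00312 over all tested genes. In RC NoDS v HFD → RC the *Mbp* call was lost without RC NoDS replicate 1 (adjusted p 0.442), 2 (0.265) or 5 (0.361) and without HFD → RC replicate 13 (0.295), 14 (0.361) or 15 (0.209), and with limma-voom (0.213), library size in place of TMM (0.155) or the zero share as a covariate (0.557). Its call by earlier diet was lost in 13 of the 21 fits without 1 library, at adjusted p of 0.154 to 0.442, namely without RC NoDS replicates 1, 2 and 5, RC → HFD replicates 7 to 11, HFD → RC replicates 13, 14 and 15, and HFD NoDS replicates 20 and 23. It was also lost with DESeq2 (0.155), limma-voom (0.453), library size in place of TMM (0.160) and the zero share as a covariate (1.00). Over all these fits the *Mbp* difference stayed between 0.75 and 1.21 in RC NoDS v HFD → RC and between 0.61 and 0.84 by earlier diet.

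The sum of the oligodendrocyte genes averaged 1438 ± 320 CPM (SD, n = 5) for RC NoDS, 1701 ± 278 CPM (n = 6) for RC → HFD, 2348 ± 949 CPM (n = 5) for HFD NoDS and 2911 ± 1362 CPM (n = 5) for HFD → RC. The libraries with the highest *Adora1* counts had the highest sums. HFD → RC replicate 14 had 4966 CPM, HFD NoDS replicate 20 had 3548 CPM and HFD → RC replicate 13 had 3397 CPM, and HFD → RC replicate 16 and HFD NoDS replicate 24, both with 1401 *Adora1* reads, had 1400 and 1419 CPM. The order was not the same everywhere, since RC → HFD replicate 12 combined 2158 CPM with 1176 *Adora1* reads, and HFD NoDS replicate 21 combined 1663 CPM with 1598.

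Of the 6 astrocyte markers 1 was called, *Gfap*, by earlier diet (0.73, adjusted p 0.0891) and over all 4 groups (adjusted p 0.125). By earlier diet 3 of the 6 had values above 0 and 3 below, with a median of 0.0345. The *Gfap* call by earlier diet was lost, at adjusted p of 0.152 to 0.251, without RC NoDS replicates 1, 2 and 5, RC → HFD replicates 8 to 11, HFD → RC replicates 13 and 14, and HFD NoDS replicates 20 and 23. The call over all 4 groups was lost, at adjusted p of 0.156 to 0.296, without RC NoDS replicates 1, 2 and 5, any RC → HFD library, HFD → RC replicates 13 and 17, and HFD NoDS replicates 19, 20 and 23. Limma-voom and the zero share as a covariate also ended the *Gfap* calls, at adjusted p of 0.359 and 1.00 by earlier diet and 0.265 and 0.403 over all 4 groups, while the difference by earlier diet stayed between 0.58 and 0.80 in all fits. The summed astrocyte level differed less, from 2262 ± 124 CPM (n = 5) in RC NoDS to 2402 ± 39.9 CPM (n = 5) in HFD → RC, with *Slc1a2* the most abundant gene and none at 0. The part of oligodendrocyte and astrocyte RNA in the *Adora1* difference was not tested. Of the neuron markers 0 of 4 were called in any comparison by edgeR. Their summed levels were 1582 ± 82.3 CPM (n = 5) for RC NoDS and 1669 ± 108 CPM (n = 5) for HFD NoDS. They were 1760 ± 123 CPM (n = 6) for RC → HFD and 1765 ± 148 CPM (n = 5) for HFD → RC. RC NoDS was lowest and HFD → RC highest, as for *Adora1*, while RC → HFD was above HFD NoDS, unlike *Adora1*. The part of neuron RNA in the *Adora1* difference was not tested.

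**Figure D2:**
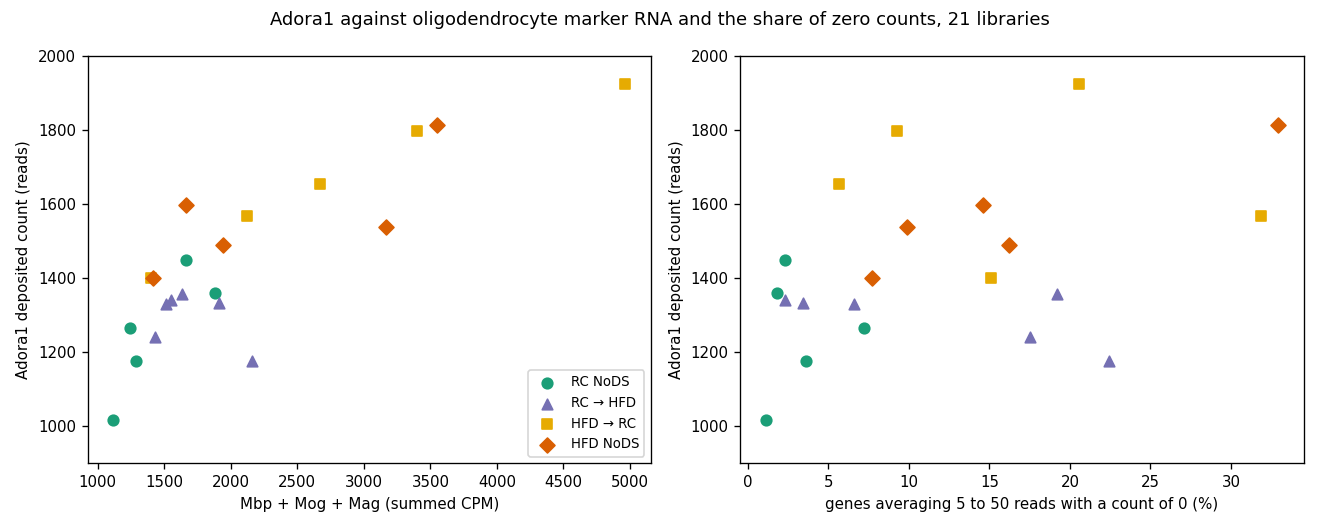
*Adora1* deposited count (reads, axis not from 0) in each of 21 libraries, marked by diet group, against the summed CPM of the oligodendrocyte genes *Mbp*, *Mog* and *Mag* (left) and against the zero share in percent (right). HFD → RC replicate 14 had the highest values of *Adora1* (1925) and of oligodendrocyte RNA (4966 CPM), whereas 3 RC → HFD libraries with zero shares of 17.6 to 22.4% had *Adora1* counts of 1176 to 1359.

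On the mm9 (NCBIM37) build *Adora1* lies on chromosome 1 from 136095800 to 136132008 on the minus strand, and 661 of its 5785 exon bases are shared with *Mybph* on the opposite strand. *Mybph* had 0 to 18 reads per library and 48 in all 21. Exchange of reads between these genes was not tested.

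*Adora2a*, the other adenosine receptor gene among the members, was near the limit of detection. Its counts were 14, 20, 23, 21 and 40 in RC NoDS and 15 to 45 (median 23) in RC → HFD. They were 41, 19, 33, 31 and 0 in HFD → RC and 6, 19, 34, 26 and 14 in HFD NoDS. The ranges overlapped in every pair of groups, and the only 0 was in HFD → RC replicate 17, a library rich in zeros. Averaging under 50 reads, *Adora2a* was tested among the 15884 genes with at least 5 reads on average, where its differences between pairs of groups ran from -0.24 to 0.51 with no adjusted p under 0.918. Striatal marker genes, 6 in all with *Rgs9* the most abundant, summed to 142.2 to 213.9 CPM with 0 of 6 called in any comparison by edgeR.

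*Adk* encodes adenosine kinase, which returns adenosine to the nucleotide pool and is the main route of its removal in brain. Counts were 711, 814, 701, 643 and 591 in RC NoDS and 499 to 724 (median 603.5) in RC → HFD. They were 750, 546, 688, 721 and 713 in HFD → RC and 605, 665, 635, 739 and 604 in HFD NoDS. All groups overlapped, and the differences between pairs of groups ran from -0.17 to 0.17 with no adjusted p under 0.869. *Adk* was thus among the steadiest of the members, with a coefficient of variation of 12.2% over the 21 libraries.

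*Ada* encodes adenosine deaminase, which converts adenosine to inosine, and had the lowest mean level of the members, though it could not be ordered against *Adora2a*. Its counts were 24, 14, 16, 33 and 22 in RC NoDS and 0 to 24 (median 10.5) in RC → HFD. They were 31, 25, 32, 7 and 66 in HFD → RC and 0, 0, 15, 8 and 12 in HFD NoDS. Mice eating RC at collection had 7 to 66 reads and those eating HFD 0 to 24, so the ranges overlapped, although the zeros, in RC → HFD replicates 10 and 11 and HFD NoDS replicates 19 and 20, were all in mice eating HFD. Tested among the 15884 genes, *Ada* was higher by 2.20 in HFD → RC than in HFD NoDS (95% interval 0.25 to 4.14, p 0.0353, adjusted p 0.643 by edgeR). By current diet, a comparison added after the data had been seen, the difference was -1.61 (lower on HFD, p 0.0231, adjusted p 0.965).

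The member with the largest difference in both main comparisons was *Ada*, at -1.62 in RC NoDS v HFD NoDS (95% interval -3.55 to 0.31, adjusted p 0.796 by edgeR) and 1.60 in RC → HFD v HFD → RC (95% interval -0.18 to 3.39). None of these passed, and at 17.5 reads on average the intervals were wide. With limma-voom the values were -2.65 and 2.47, and by current diet -2.56, none of them called. The 4 libraries without *Ada* reads had zero shares of 16.2 to 32.9%, and HFD → RC replicate 17, at 31.9%, had the highest *Ada* count of all, 66. The part of the zero share in the *Ada* counts was not tested.

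Among 15 other genes of adenosine formation, transport and breakdown and the remaining receptors, 13 averaged 50 or more reads, and 0 of 13 were called in any of the 10 comparisons by edgeR. *Entpd1*, which breaks down extracellular ATP, had a difference of 0.48 in RC NoDS v HFD NoDS (p 0.0119, adjusted p 0.640). *Nt5e*, the ectonucleotidase that forms adenosine from AMP, had 0.80 in RC → HFD v HFD → RC (p 0.0162, adjusted p 0.899). In RC NoDS v HFD NoDS 11 of 13 had values above 0 (median 0.179 against 0.00645 over all tested genes), in RC → HFD v HFD → RC 9 (median 0.102 against 0.000117), in RC NoDS v HFD → RC 9, in RC NoDS v RC → HFD 8, in HFD NoDS v HFD → RC 4, in HFD NoDS v RC → HFD 1 and for the interaction 8. By earlier diet, a comparison added after the data had been seen, 13 of 13 did (median 0.104 against 0.00312), and by current diet, also added then, 9 did (median 0.0359 against -0.000778). The share of all tested genes above 0 was not computed. The sum of the 15 genes averaged 547.5 CPM in RC NoDS, 552.6 in RC → HFD, 554.3 in HFD → RC and 589.3 in HFD NoDS. HFD → RC thus lay near the groups of earlier RC.

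*Hdc* encodes histidine decarboxylase, the enzyme that makes histamine and the gene that defines tuberomammillary neurons. Counts were 1626, 794, 600, 903 and 993 in RC NoDS and 483 to 992 (median 730) in RC → HFD. They were 1126, 254, 298, 983 and 1279 in HFD → RC and 995, 231, 946, 768 and 1353 in HFD NoDS. *Hdc* varied more within groups than between them, with coefficients of variation of 25.0 to 60.8% in the 4 groups. Differences between pairs of groups ran from -0.42 to 0.13 with no adjusted p under 0.885.

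The 3 libraries with the least *Hdc* also had the least RNA of the other tuberomammillary markers. HFD → RC replicate 14 (254 *Hdc* reads), HFD → RC replicate 15 (298) and HFD NoDS replicate 20 (231) had summed marker levels of 46.2, 55.0 and 51.8 CPM, while the other 18 libraries had 71.2 CPM or more. RC NoDS replicate 1, highest in *Hdc*, was also highest in the markers, at 147.5 CPM. *Maob* was the most abundant of the 4 markers, none of them was at 0 in all libraries, and 0 of 4 were called in any comparison by edgeR. Mast cells also make histamine, and 3 genes of mast cells (*Cma1*, *Tpsb2* and *Mcpt4*) summed to at most 0.972 CPM and to 0 in 16 of 21 libraries. The part of mast cells in the *Hdc* counts was not tested.

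**Figure D3:**
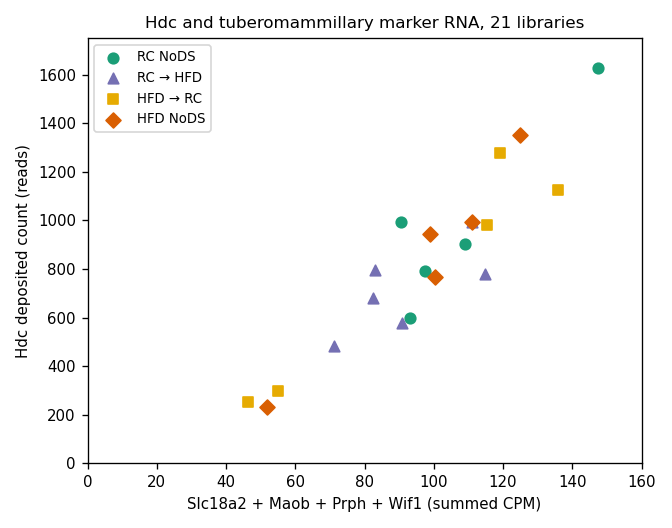
*Hdc* deposited count (reads) in each of 21 libraries, marked by diet group, against the summed CPM of the tuberomammillary markers *Slc18a2*, *Maob*, *Prph* and *Wif1* (both axes from 0). The 3 libraries with 231 to 298 *Hdc* reads had 46.2 to 55.0 CPM of marker RNA, and they came from HFD → RC and HFD NoDS.

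*Hrh1* encodes the excitatory histamine receptor through which sedating antihistamines act. Counts were 142, 106, 148, 132 and 170 in RC NoDS and 102 to 206 (median 141) in RC → HFD. They were 118, 194, 139, 214 and 133 in HFD → RC and 173, 112, 97, 127 and 115 in HFD NoDS. Every pair of groups overlapped, and the differences ran from -0.14 to 0.36 with no adjusted p under 0.716.

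*Hrh3*, the receptor by which histamine neurons limit their own firing and release, had the highest level of the 10 per kilobase and the smallest relative spread, 8.67% over 21 libraries. Its counts were 2592, 2053, 2753, 2395 and 2525 in RC NoDS and 2357 to 2870 (median 2448.5) in RC → HFD. They were 2340, 2461, 2521, 2089 and 2320 in HFD → RC and 2904, 2582, 2353, 2452 and 2310 in HFD NoDS. The groups overlapped throughout, with differences from -0.11 to 0.06 and no adjusted p under 0.803. *Hrh3* did not follow *Hdc* in the libraries poor in tuberomammillary RNA, where it had 2461, 2521 and 2582 reads. Of its 3146 exon bases 349 are shared with an opposite-strand gene, *Gm17180*, whose counts were not analysed here.

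*Hnmt* encodes histamine N-methyltransferase, the enzyme that inactivates histamine in brain. Counts were 234, 190, 189, 200 and 129 in RC NoDS and 52 to 251 (median 191) in RC → HFD. They were 101, 129, 160, 128 and 70 in HFD → RC and 138, 34, 108, 130 and 136 in HFD NoDS. In RC NoDS 4 of 5 libraries were above every HFD NoDS and HFD → RC library, and RC NoDS replicate 6, at 129, lay within their range. RC → HFD spanned nearly the whole range of the other groups.

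The edgeR difference of *Hnmt* in RC NoDS v HFD NoDS was -0.77 (lower in HFD NoDS, 95% interval -1.43 to -0.11, p 0.0302, adjusted p 0.657). By earlier diet it was -0.64 (lower after HFD, 95% interval -1.10 to -0.19, p 0.0103, adjusted p 0.577). Neither was called. The lowest counts were in libraries rich in zeros, with 34 reads in HFD NoDS replicate 20, 52 in RC → HFD replicate 11 and 70 in HFD → RC replicate 17, where the zero shares were 32.9, 17.6 and 31.9%. The highest count, 251, was also in a library of this kind, RC → HFD replicate 10 (19.2%), and HFD → RC replicate 14 (20.5%) had 129. With this share as a covariate the differences were -0.29 and -0.31.

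Among 7 other genes of histamine reception, storage and breakdown, 4 averaged 50 or more reads, and 0 of 4 were called in any comparison by edgeR. Their median difference was -0.195 in RC NoDS v HFD NoDS and -0.0407 in RC → HFD v HFD → RC, against 0.00645 and 0.000117 over all tested genes. *Hrh4*, a receptor known mainly from blood cells, had reads in 1 of the 21 libraries.

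The orexin receptors were measured in tissue that held variable amounts of the peptide gene. *Hcrt* counts were 75, 70, 94, 28 and 105 in RC NoDS and 58 to 355 in RC → HFD. They were 437, 256, 215, 87 and 368 in HFD → RC and 93, 1051, 823, 187 and 234 in HFD NoDS. RC NoDS was uniformly low, and HFD NoDS replicates 20 and 21 were far above every other library. *Hcrt* was called in RC NoDS v HFD NoDS (higher in HFD NoDS by 2.71, adjusted p 0.0513 by edgeR). The study itself reported similar *Hcrt* levels in all its diet groups, by sequencing and by quantitative PCR on sequenced and on other punches.

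This call of *Hcrt* was lost without HFD NoDS replicate 20 (2.17, adjusted p 0.288) or 21 (2.43, adjusted p 0.222), without RC NoDS replicate 1 (adjusted p 0.175), 2 (0.245) or 5 (0.257), with limma-voom (0.642), with the zero share as a covariate (0.999) and with only these 2 groups in the fit (0.175). Over all the alternatives this difference stayed between 2.17 and 2.97. Without a call in the main fit, *Hcrt* was also higher in HFD → RC than in RC NoDS and after earlier HFD. These differences were 1.66 to 2.12 and 1.31 to 1.70 over the alternatives, with a call gained in 3 of 28 and 5 of 27. In the other pairs, by current diet and for the interaction no call was gained. *Hcrt* was one of the genes on which punches had been accepted or dropped, so its level was not independent of that step. *Pmch*, the other gene of the lateral hypothalamus, was not called in any comparison, and the part of tissue position in the *Hcrt* difference was not tested. *Pdyn* and *Nptx2*, which orexin neurons also express, were not called either, with *Pdyn* at -0.28 in RC → HFD v HFD → RC (adjusted p 0.798).

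*Hcrtr1*, the receptor that prefers orexin A, had counts of 144, 158, 274, 193 and 262 in RC NoDS and 203 to 319 (median 228) in RC → HFD. They were 142, 251, 334, 293 and 278 in HFD → RC and 304, 392, 202, 123 and 218 in HFD NoDS. The highest count was in HFD NoDS replicate 20 and the lowest in HFD NoDS replicate 23, so this group alone covered the range of the other 3. Differences between pairs of groups ran from -0.02 to 0.36 with no adjusted p under 0.754.

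*Hcrtr2*, the receptor for both orexins and the one tied to arousal through histamine neurons, had counts of 253, 224, 174, 150 and 168 in RC NoDS and 82 to 292 (median 228.5) in RC → HFD. They were 172, 172, 158, 187 and 137 in HFD → RC and 165, 153, 229, 171 and 205 in HFD NoDS. HFD → RC had the narrowest spread and RC → HFD the widest, RC → HFD replicate 12 holding the lowest count of all 21 libraries at 82. The groups overlapped, with differences from -0.37 to 0.22 and no adjusted p under 0.862.

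Over the 10 members, the comparisons not yet counted gave no call. In RC NoDS v HFD NoDS, edgeR called 0 of 10 members, DESeq2 0 and limma-voom 0, with 2 at an unadjusted p under 0.05 (*Adora1* and *Hnmt*). Of the 12768 tested genes 7.41% had such a p and 0.0783% were called. The 8 members averaging 50 or more reads had differences from -0.77 to 0.34, 3 of them above 0, with a median of -0.0617 against 0.00645 over all tested genes.

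In RC → HFD v HFD → RC, edgeR, DESeq2 and limma-voom each called 0 of 10 members, with 1 at an unadjusted p under 0.05 (*Adora1*). Of the tested genes 5.35% had such a p and 0.00783% were called. The 8 members had a range of -0.52 to 0.36 and a median of 0.0985 against 0.000117. *Hnmt* stood at the lower end and *Adora1* at the upper, as in the comparison without a switch.

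Each of the remaining contrasts had 0 of 10 members called by edgeR, by DESeq2 and by limma-voom. In RC NoDS v RC → HFD 0 members had an unadjusted p under 0.05, where 6.51% of tested genes did and 0.0392% were called. In HFD NoDS v HFD → RC it was 1 member (*Ada*), where 7.93% of tested genes did and 0.0705% were called, and in HFD NoDS v RC → HFD 1 member (*Adora1*), with 7.49% and 0.0157%. For the interaction of current and earlier diet it was 0 members, with 8.84% and 0.0313%, and by current diet 1 member (*Ada*), with 5.22% and 0.0470%. Counts of 0 or 1 among 10 members were near these shares.

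Receptors for the other arousal transmitters gave a similar picture. Of 26 such genes (noradrenaline, serotonin, acetylcholine, dopamine, neuropeptide S and substance P) 22 averaged 50 or more reads, and 0 of 22 were called in any comparison by edgeR. *Tacr1*, the substance P receptor, had 0.40 in RC → HFD v HFD → RC (p under 0.05 before adjustment, adjusted p 0.899). The median was 0.0886 in RC NoDS v HFD NoDS and 0.0388 in RC → HFD v HFD → RC, against 0.00645 and 0.000117 over all tested genes. It was 0.168 in RC NoDS v HFD → RC, with 16 of 22 above 0, and -0.131 for the interaction, with 4 of 22 above 0. In the other pairs and by earlier or current diet it lay between 0.0259 and 0.115.

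Of the marker lists, the arcuate one had calls in 6 of 10 comparisons, with 3 of 7 called in RC NoDS v HFD NoDS: *Npy* (-1.26, adjusted p 7.79e-05) and *Agrp* (-0.97, adjusted p 0.0507), peptides that drive feeding, were lower in HFD NoDS, and *Cartpt* (0.89, adjusted p 0.000930), a peptide that curbs it, was higher. The *Agrp* call was lost without RC NoDS replicate 1 (adjusted p 0.166) or 5 (0.244) and without HFD NoDS replicate 19 (0.231), 21 (0.218) or 24 (0.155). By current diet the same 3 genes were called, and by earlier diet none of the 7 was, the reverse of *Adora1*. The lists for the ventromedial and paraventricular nuclei, microglia, endothelium, tanycytes, choroid plexus, meningeal fibroblasts and blood had no called gene in any comparison by edgeR. The summed microglia level was higher on average after earlier HFD, with 185.2 CPM for RC NoDS and 190.8 for RC → HFD against 202.5 for HFD → RC and 210.7 for HFD NoDS, and the libraries overlapped (172.7 to 201.3 and 187.7 to 234.2 CPM). By earlier diet 3 of the 5 microglia genes had values above 0, with a median of 0.148. Blood RNA summed to 152.6 to 210.7 CPM in RC NoDS and to 52.39 to 101.4 CPM in RC → HFD, without overlap. The share of all genes without overlap in this pair was not computed. Of the 3 blood genes none was called there (lowest adjusted p 0.443 by edgeR). Blood RNA summed to 30.98 to 322.0 CPM in HFD → RC and 68.57 to 194.9 CPM in HFD NoDS, which overlapped RC NoDS. The part of microglia in the *Adora1* difference was not tested.

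The genes whose counts varied most like each member within groups, by the correlation of log2(CPM + 1) over 21 libraries after removing group means, were found among the 12768 tested genes. For *Adora1* they were *Sox13* (r 0.872), *Pim3* (0.852) and *Daam2* (0.823), and for *Adk* *Lrrk2* (0.821), *Ovgp1* (0.806) and *Trim23* (0.791). For *Hdc* they were *Tac1* (0.911), *Wif1* (0.900) and *Maob* (0.881). *Wif1* and *Maob* are on the tuberomammillary list, and *Hdc* had the highest coefficients of the 8 members.

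For *Hrh1* the nearest genes were *Zfp474* (0.765), *Atp5g1* (0.754) and *Slc25a28* (0.736), and for *Hrh3* *Fxyd7* (0.833), *H1fx* (0.830) and *Lrrc4b* (0.828). *Hcrtr1* varied most like *Plxdc1* (0.864), *Mmp17* (0.859) and *Tmem179* (0.841), and *Hcrtr2* most like *Zfp738* (0.866), *Zfp948* (0.840) and *Tmem67* (0.827). For *Hnmt* they were *Phkb* (0.841), *Nphp4* (0.838) and *Phf20l1* (0.832). No member was among the nearest genes of another. The coefficients describe these libraries only, and without the 2 libraries farthest from the median they ran from 0.562 to 0.869, with Spearman coefficients of 0.603 to 0.904 over all 21.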

How the data were processed

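The authors aligned reads of stranded, polyadenylated libraries to mm9 with STAR 2.5.1b, used Picard 2.7.1, removed ribosomal and mitochondrial reads, used PORT to re-sample all libraries to equal depth, and deposited whole-number counts per gene. The strand setting of the counting was not given in the sources used here. All 21 libraries were fitted together with edgeR 4.0.16 (R 4.3.3, quasi-likelihood F-test, TMM, 4 group means), on the 12768 genes averaging at least 50 reads, the High Filter, with Benjamini-Hochberg adjustment over all of them and a threshold of 0.15. *Ada* and *Adora2a* were below this filter and were tested with the Low Filter (at least 5 reads, 15884 genes). A log2 difference is the second group minus the first, the interaction is the effect of current HFD after earlier HFD minus that after earlier RC, and 95% intervals are 1.96 standard errors.

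Log2 differences were printed for a member with an unadjusted p under 0.05 or no overlap between groups, for the largest in each main comparison, and as ranges otherwise. The *Adora1* values where only the current diet differed, and for the interaction, were printed in addition. List genes were named if called or, outside the marker lists, at an unadjusted p under 0.05 in a main comparison. CPM are TMM-scaled, and exon lengths and coordinates are from GENCODE vM1 (NCBIM37). The members and gene lists were chosen with earlier results of these data known. The earlier-diet and current-diet comparisons were added after the data had been seen. Alternatives were DESeq2 1.42.0, limma-voom (limma 3.58.1), both other filters, library size in place of TMM, the zero share as a covariate, only the compared groups, and leaving out each library. No pair of libraries was identical, and pairs within a group differed by more than sampling noise (chi-square per degree of freedom 6.89 to 42.0 in 45 pairs). A gene of the marker lists is not reported here, and the sums leave it out. No list described as having no called gene had contained it. Figures were drawn with matplotlib.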

Additional observations from a re-analysis of the deposited data

Results flagged for a closer look

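*Adk* in HFD → RC replicate 14 stood apart from the rest of its group, with 546 reads (33.8 CPM) against 688 to 750 in the other 4 libraries, a gap of 0.742 of the range of the group on the CPM scale. This library had the lowest *Hdc* count of its group, the highest *Adora1* count and the most oligodendrocyte RNA of the 21. A total of 40 groups of values (10 genes in 4 groups) were examined in this way, and chance flags about 1 in 20.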

How the results depend on the processing

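No paired analysis was possible because the groups share no replicate numbers. The log2 differences of called list genes, of members and other list genes chosen by the printing rules, and of *Hcrt* were refitted under the alternatives that apply, and those given as ranges were not tallied. The *Adora1* values where only the current diet differed, and for the interaction, were not tallied either. None of those tallied changed direction, 967 kept their call or lack of one, 73 lost a call and 9 gained one, whatever their size, and the cause was not tested. DESeq2 moved the counts of called genes to 17 in RC NoDS v HFD NoDS (from 10), 5 in RC → HFD v HFD → RC (from 1), 133 over all 4 groups (from 19), 90 in RC NoDS v RC → HFD (from 5), 44 in HFD NoDS v HFD → RC (from 9), 146 in RC NoDS v HFD → RC (from 36), 32 in HFD NoDS v RC → HFD (from 2), 115 for the interaction (from 4), 23 by earlier diet (from 9) and 12 by current diet (from 6). With the zero share as a covariate they were 6 in RC NoDS v HFD NoDS, 9 over all 4 groups, 15 in HFD NoDS v HFD → RC, 1 in RC NoDS v HFD → RC, 1 in HFD NoDS v RC → HFD, 33 for the interaction and 2 by earlier diet. Limma-voom gave 7 in RC NoDS v HFD → RC, 15 for the interaction and 3 by earlier diet, and library size in place of TMM gave 10 in RC NoDS v HFD → RC and 2 for the interaction. The Low Filter gave 2 in RC → HFD v HFD → RC, 4 in HFD NoDS v HFD → RC, 1 in HFD NoDS v RC → HFD and 0 for the interaction, and no filter gave 3, 5 and 5 in those 3 pairs, 31 over all 4 groups and 35 by earlier diet. With only the compared groups in the fit there were 24 in RC NoDS v RC → HFD, 1 in HFD NoDS v HFD → RC and 4 in HFD NoDS v RC → HFD. The 1 member called became 0 over all 4 groups with limma-voom and with the zero share, 0 in RC NoDS v HFD → RC with limma-voom, library size, the zero share and only the compared groups, and 0 by earlier diet with the zero share. Leave-one-out fits called 5 to 14 genes in RC NoDS v HFD NoDS, 1 to 41 in RC → HFD v HFD → RC, 9 to 80 over all 4 groups, 4 to 12 in RC NoDS v RC → HFD, 1 to 13 in HFD NoDS v HFD → RC, 1 to 203 in RC NoDS v HFD → RC, 1 to 31 in HFD NoDS v RC → HFD, 0 to 123 for the interaction, 2 to 71 by earlier diet and 4 to 10 by current diet. They called 0 to 1 members in RC → HFD v HFD → RC, over all 4 groups, in RC NoDS v HFD → RC and by earlier diet, and 0 elsewhere.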
